A study of Mus musculus with 80 samples.

Results

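The arrays of this series fell into 2 sets by their level of Trim12a, a tripartite motif gene on mouse chromosome 7, and the comparison below sets the arrays with much Trim12a against those with little. All 80 arrays were sorted by Trim12a and divided at the widest gap between neighbouring values that left at least 8 arrays on each side. The gap ran from 8.40 to 9.61, a width of 1.21 scale units, while the next widest gap was 0.284. It put 52 of the 80 arrays on the high side and 28 on the low side, each array by its own value. The sides were thus chosen by the measured Trim12a values alone, and these levels are given as a description with no test, and Trim12a was left out of all counts.

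The data are Affymetrix array measurements of subcutaneous white adipose tissue from the BXD family, inbred mouse strains whose genomes are mosaics of the parental strains C57BL/6J and DBA/2J. Each array held the pooled RNA of about 5 male mice of 1 strain on 1 diet, so the spread between arrays is a spread between pools and between strains, not between single animals. All mice were 29 weeks old and fasted overnight. The 42 chow arrays came from mice kept on Harlan 2018, and the 38 high fat arrays from mice given Harlan 06414 from week 8. They covered 40 BXD strains and both parents, of which 38 strains had an array on each diet and 4 had chow alone. The deposited values had been rescaled so that their mean was 8.0 and their SD 2.0 in each array, so 1 scale unit is 0.5 of an array's standard deviation on a log-type scale and no fold changes can be given. The scale has no true zero.

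Tripartite motif (TRIM) proteins carry a RING domain that attaches ubiquitin, B-box and coiled-coil domains and, in many members, a C-terminal SPRY domain that recognises a target. TRIM5 is best known in primates, where it binds the capsids of incoming retroviruses, and the mouse carries a tandem cluster of related genes (Trim5, Trim12a, Trim12c, the Trim30 and Trim34 genes and Trim6) amid olfactory receptor genes on chromosome 7. Many of these genes are induced by interferon. In BXD strains, a stretch of chromosome comes either from C57BL/6J or from DBA/2J, so genes that lie close together are usually inherited together from the same parent.

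The promoter windows of Trim12a, of its close copies Trim5 and Trim12c, and of Trim30d and Trim6, the cluster genes with the largest rise and the only called fall below, are shown to let these windows be compared. The windows reach from 250 bases before to 50 bases after each gene's annotated start in RefSeq (GRCm38.p6), and capitals mark the core of the interferon-stimulated response element, GAAANNGAAA on either strand. They lie at chr7:104315446-104315745 on the minus strand for Trim12a, chr7:104288057-104288356 on the minus strand for Trim5, chr7:104353300-104353599 on the minus strand for Trim12c, chr7:104507800-104508099 on the minus strand for Trim30d and chr7:104218545-104218844 on the plus strand for Trim6.
Trim12a: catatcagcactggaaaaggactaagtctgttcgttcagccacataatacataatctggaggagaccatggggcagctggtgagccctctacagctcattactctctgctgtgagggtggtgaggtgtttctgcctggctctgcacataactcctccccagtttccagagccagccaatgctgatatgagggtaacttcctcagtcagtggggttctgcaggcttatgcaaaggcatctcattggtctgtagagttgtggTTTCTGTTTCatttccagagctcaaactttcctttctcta
Trim5: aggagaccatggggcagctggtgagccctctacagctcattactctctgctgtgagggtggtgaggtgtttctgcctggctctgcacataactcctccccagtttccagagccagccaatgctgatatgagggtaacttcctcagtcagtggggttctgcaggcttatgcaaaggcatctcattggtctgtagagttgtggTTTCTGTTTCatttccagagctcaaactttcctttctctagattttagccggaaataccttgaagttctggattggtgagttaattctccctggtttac
Trim12c: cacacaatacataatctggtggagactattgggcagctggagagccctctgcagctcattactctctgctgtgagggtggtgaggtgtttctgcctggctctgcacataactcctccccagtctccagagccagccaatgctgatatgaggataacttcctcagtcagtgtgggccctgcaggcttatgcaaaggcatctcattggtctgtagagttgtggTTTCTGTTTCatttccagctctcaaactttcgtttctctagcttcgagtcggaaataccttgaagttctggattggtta
Trim30d: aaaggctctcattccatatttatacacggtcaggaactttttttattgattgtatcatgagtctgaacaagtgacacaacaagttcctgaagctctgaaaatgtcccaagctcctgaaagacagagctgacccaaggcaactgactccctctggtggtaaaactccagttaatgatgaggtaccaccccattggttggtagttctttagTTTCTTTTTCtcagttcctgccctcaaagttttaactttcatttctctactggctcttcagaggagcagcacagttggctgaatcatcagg
Trim6: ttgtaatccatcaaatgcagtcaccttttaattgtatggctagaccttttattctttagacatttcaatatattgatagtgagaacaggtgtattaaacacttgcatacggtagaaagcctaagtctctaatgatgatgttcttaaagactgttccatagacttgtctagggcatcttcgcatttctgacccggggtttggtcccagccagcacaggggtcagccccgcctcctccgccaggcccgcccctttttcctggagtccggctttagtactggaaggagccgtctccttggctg
The Trim12a and Trim5 windows held an identical run of 241 bases, offset by 59 bases. In a global (end-to-end) alignment 248 bases of the Trim12a and Trim12c windows were identical, with a longest shared run of 71. The Trim30d and Trim6 windows had 170 and 180 bases identical to that of Trim12a, with longest shared runs of 9 and 8. The motif was found in the windows of Trim12a, Trim5, Trim12c, Trim30d, Trim30a and Trim34a, and these letters were not in the windows of Trim6, Trim30b, Trim30c or Trim34b. Of all 32851 promoter windows of the same table, 1131 (3.44%) held it. Such near-identical copies can share probe sequence, and how far the array signals of Trim12a, Trim5 and Trim12c are separate was not tested.

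On the high side, Trim12a ran from 9.61 through a median of 10.27 to 10.96 over the 52 arrays, with a mean of 10.26 ± 0.29 (SD). On the low side it ran from 7.75 through a median of 8.08 to 8.40 over the 28 arrays, with a mean of 8.09 ± 0.17. The division was alike on both diets, with 27 high and 15 low arrays on chow and 25 high and 13 low arrays on high fat. The medians were 10.28 and 8.12 on chow and 10.23 and 8.06 on high fat. C57BL/6J was high on both diets and DBA/2J was low on both, at 7.91 on chow and 7.98 on high fat. A cut halfway between the parents, at 9.25, gave the same sides, with 0 arrays placed otherwise.

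**Figure D1:**
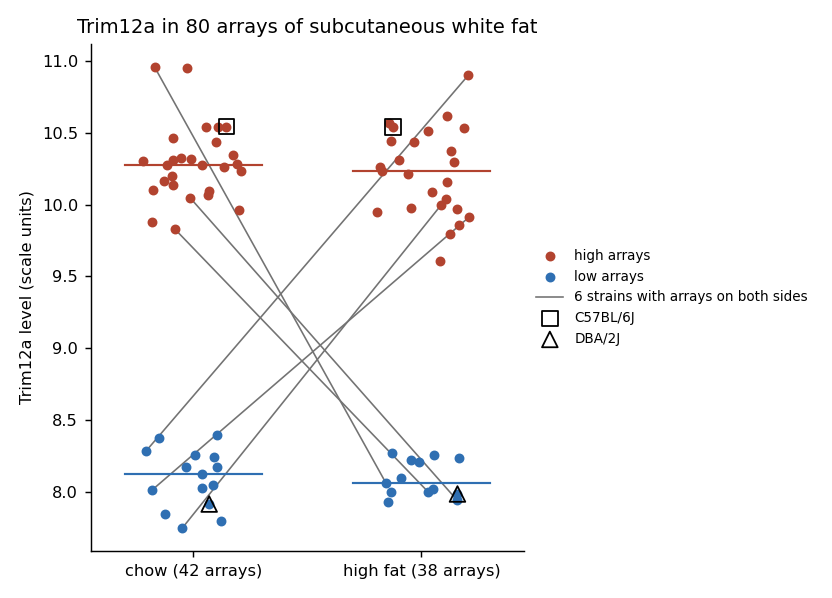
Trim12a level in scale units (vertical axis) in each array, by diet, with horizontal lines at the median of each side. Lines join the arrays of the 6 strains that lay on different sides on the 2 diets, and open symbols mark the parental strains; no array lay between 8.40 and 9.61.

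Of the 38 strains with both diets, 22 were high on both and 10 low on both, and 6 had 1 array on each side. BXD51 was at 10.96 on chow and 8.06 on high fat, BXD73 at 9.83 and 8.00, and BXD80 at 10.04 and 7.94. The other way round, BXD55 was at 7.75 on chow and 10 on high fat, BXD83 at 8.29 and 10.90, and BXD87 at 8.01 and 9.91. The arrays of these 6 strains also disagreed elsewhere in the genome. At 11 genes on 8 other chromosomes whose levels likewise fell into 2 separate clusters, the 2 arrays of each such strain lay in different clusters at 3 to 6 genes. Among the other 32 strains, 23 differed at 0 of the 11 genes, 1 at 1 gene, and 8 (BXD63, BXD75, BXD79, BXD81, BXD84, BXD89, BXD90 and BXD95) at up to 8 genes. The 2 arrays of each of these 14 strains thus disagreed at such genes. The arrays of each pair also differ in diet, no genotypes were examined and the cause of the disagreement was not tested. No array was relabelled, and the results are given with all arrays, without the 6 strains (12 arrays left out) and, for the counts, without all 14 (28 arrays left out).

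The tissue label was checked against marker genes. The fat cell genes Adipoq (12.76 to 13.52), Plin1 (12.97 to 14.29) and Fabp4 (15.09 to 15.81) were high in every array. The mean of 15 skeletal muscle genes varied widely, from 8.37 through a median of 10.82 to 13.63 on the high side and from 8.50 through 11.49 to 14.22 on the low side. The mean of 12 B cell and lymph node genes ran from 8.55 to 11.63 and from 8.64 to 11.78. None of the genes of either list passed the test between the sides, and in bulk tissue a change in the number of cells of a type and a change in RNA per cell cannot be told apart.

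The question of the main comparison is which other genes differ between arrays high and low in Trim12a. In a limma fit with diet as a covariate and strain as a random block, 105 of 38826 genes (0.27%) passed a Benjamini-Hochberg adjusted p of 0.05. Of these, 78 (0.201%) were higher and 27 (0.0695%) lower in the high arrays, and 24 (0.0618%) differed by at least 0.5 units. The median difference over all genes was -0.01 units. Chromosome 7, which carries Trim12a, held 64 of the 105 among its 3182 genes (2.01%), and the other chromosomes held 41 of 35644 (0.115%). These are counts of symbols and not all are separate measurements. The models Gm22171 and Gm24659 on chromosome 7 and Gm25871 on chromosome 8, named after their values were seen, had identical results (0.35 ± 0.082 units). Spcs2 on chromosome 7 and Spcs2-ps on chromosome 2 were both called, and whether their signals are separate was not tested. On chromosome 7, 49 rose and 15 fell, and elsewhere 29 rose and 12 fell. Without the 6 strains the count was 51 (0.131%), with 41 on chromosome 7 and 10 elsewhere, and without the 14 strains it was 34 (0.0876%), with 28 and 6. Chow arrays alone gave 37 called genes (0.0953%), high fat arrays alone 25 (0.0644%), 1 value per strain 33 (0.085%), marker means as covariates 93 (0.24%) and the arrays without both parents 196 (0.505%).

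The closest partner of Trim12a was Trim5, the measured gene before it in the reference order and the mouse namesake of the primate restriction factor. Trim5 ran from 9.31 through a median of 9.97 to 10.76 in the high arrays and from 7.99 through 8.42 to 8.75 in the low arrays. Every high array lay above every low array. The difference was 1.59 ± 0.062 units (SE), with an adjusted p of 4.61e-36 in limma's test. The Pearson correlation with Trim12a over the 80 arrays was 0.99, which is a description, since both sides enter it.

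Trim30d, a Trim30 family member at the far end of the cluster, ran from 8.79 through 9.64 to 10.52 in the high arrays and from 7.49 through 7.91 to 8.32 in the low arrays. Here too the sides did not overlap, and the difference was 1.68 ± 0.073 units (adjusted p = 7.35e-33). Only 4 of the 38826 genes (0.0103%) had sides that did not overlap, and the other two were gene models named here after their values were seen. Gm15133, a noncoding RNA whose annotated span covers the promoter window of Trim12a, was 0.71 ± 0.042 units higher. Gm4992, annotated on the X chromosome and listed in the reference as a pseudogene with the synonym Trim12-X, was 1.33 ± 0.068 units higher. Whether the signals of these models are separate from that of Trim12a was not tested.

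Trim12c, the second mouse Trim12 gene, overlapped more. It ran from 9.81 through 10.26 to 10.75 in the high arrays and from 9.30 through 9.80 to 10.28 in the low arrays, where 10 of 28 arrays lay above the lowest high array. The difference was 0.48 ± 0.056 units (adjusted p = 1.3e-09). Trim30b ran from 6.62 through 7.31 to 8.61 and from 6.62 through 6.79 to 7.21, a difference of 0.52 ± 0.088 units (adjusted p = 9.5e-05, 0.00137 without the 6 strains and 0.0722 without the 14). Trim30b levels reached further up in the high arrays, while their lower ends were alike.

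Trim30a, known in mouse macrophages as a brake on Toll-like receptor signalling, ran from 9.20 through 9.96 to 10.74 in the high arrays and from 8.70 through 9.44 to 10.34 in the low arrays. Its difference of 0.46 ± 0.085 units passed the test (adjusted p = 0.00062) with all arrays and missed it without the 6 strains, at 0.37 units (adjusted p = 0.103). The pseudogene Trim30e-ps1 and the model Gm16464, both also in the cluster, rose by 0.45 and 0.45 units. Trim30c differed by 0.25 ± 0.062 units (adjusted p = 0.0502) and Trim34b by 0.29 ± 0.076 units (adjusted p = 0.076), and neither passed. The deposited description of the Trim34b feature names Trim34a, so which Trim34 gene it measures is uncertain.

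Trim6 moved the other way. TRIM6 is known in human cells to make free ubiquitin chains that activate a kinase of interferon signalling. Trim6 ran from 7.39 through 7.68 to 7.88 in the high arrays and from 7.60 through 7.96 to 8.32 in the low arrays. It was lower in the high arrays with some overlap of the sides, and fell by 0.32 ± 0.029 units (adjusted p = 7.08e-14). Trim5 and Trim6 lie on the same side of Trim12a, with Trim34a, which has no feature under its own symbol, between them. They differed in opposite directions.

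**Figure D2:**
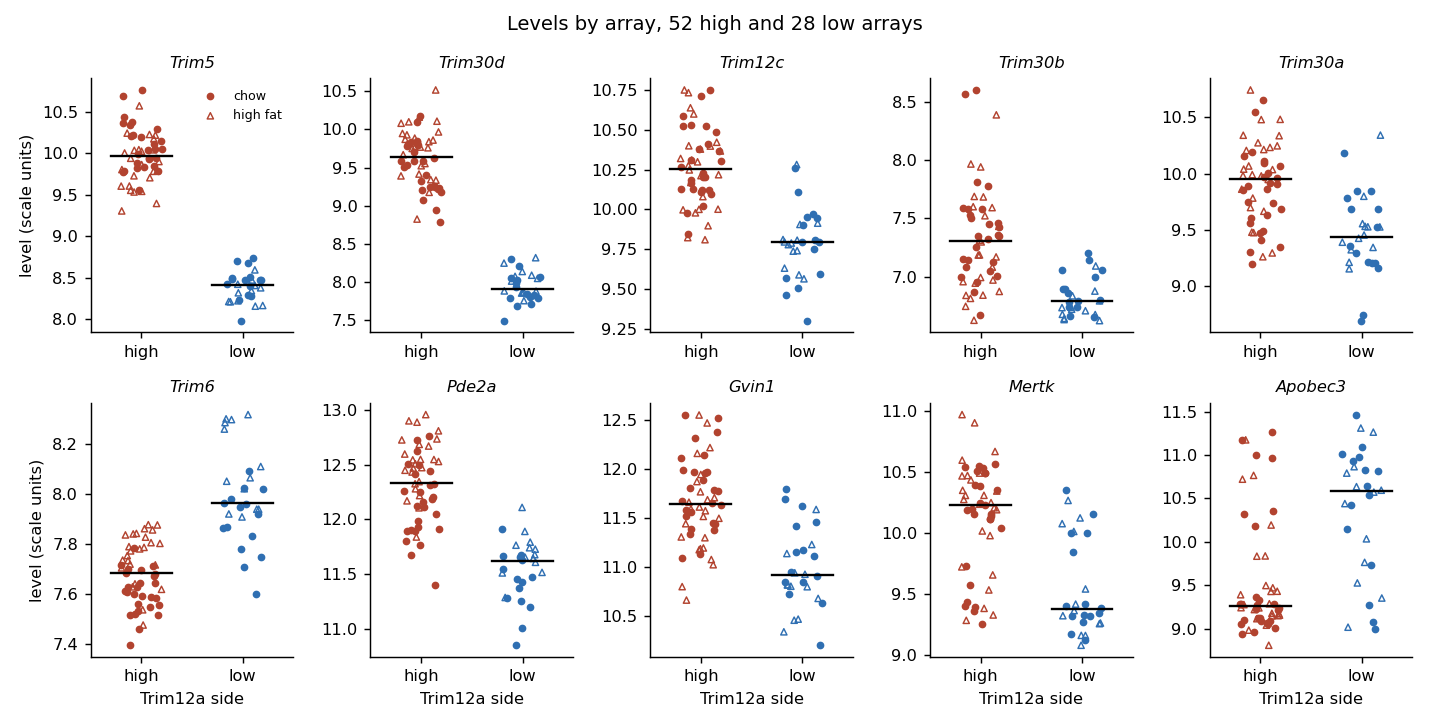
Level in scale units (vertical axis) of 10 genes in each array, by Trim12a side, with filled circles for chow, open triangles for high fat and a line at the median of the side. Trim5 and Trim30d show sides that do not overlap, Trim6 and Apobec3 have the lower median in the high arrays, and the remaining 6 genes have the higher median there with overlap.

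Of the 15 TRIM genes listed for chromosome 7, 14 were measured under their own symbol (not Trim34a). Trim5, Trim30d, Trim12c, Trim30b and Trim30a rose, Trim6 fell and 8 did not pass. None of the members away from the cluster passed. Trim21, the antibody receptor of the cytosol, was at 0.01 ± 0.029 units, Trim66 at -0.00 ± 0.020 and Trim3 at 0.09 ± 0.030. Trim28, a corepressor of retroelements, was at -0.06 ± 0.031, Trim68 at -0.12 ± 0.036 and Trim72 at -0.15 ± 0.096. Of the 14 measured genes, 10 had an unadjusted p under 0.05 in limma's test, Trim3 and Trim68 among them. The list median was 0.17 units against -0.01 over all genes. Of 50 TRIM genes on other chromosomes, 0 passed limma's test and 7 had an unadjusted p under 0.05, where 12.5% of all genes did, and their median was 0.00.

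Called genes were dense within the cluster and lacking among the measured genes just outside it. Places are counted over the measured genes in the reference order. By this count 9 of the 13 measured genes from Trim6, 2 genes before Trim12a, to Trim30e-ps1, 11 genes after it, passed the test, read against 0.27% of all genes, and 8 passed without the 6 strains. Within 20 genes of Trim12a on either side there were 22 olfactory receptor genes, and 0 of them passed, their largest absolute difference being 0.113 units (Olfr645). The nearest called gene before Trim6 was Pgap2, 131 places before Trim12a, and 0 of the 128 measured genes between them passed. The receptor genes within 20 places ranged from Olfr654, with medians of 4.27 and 4.23, to Olfr649, with medians of 8.43 and 8.45. Of the 22, 19 had a median over all arrays under the array mean of 8.0. How far the lack of calls among them goes with their low signal was not tested.

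Beyond that stretch without called genes, 34 of 170 measured genes between 300 and 131 places before Trim12a passed, against 0.27% of all genes. Without the 6 strains 22 passed, and with 1 value per strain 16. Pde2a, a phosphodiesterase that cyclic GMP stimulates, lay 154 genes before Trim12a and ran from 11.40 through 12.34 to 12.96 in the high arrays and from 10.85 through 11.62 to 12.11 in the low arrays. It was 0.78 ± 0.067 units higher (adjusted p = 3.43e-15), and 13 of 52 high arrays lay below the highest low array. Uvrag, a component of the autophagy lipid kinase complex, was 0.38 ± 0.044 units higher. Trpc2, the channel of vomeronasal neurons, was 0.18 ± 0.021 units higher, and Art2b, an ADP-ribosyltransferase of T cells, 0.47 ± 0.11. Without the 6 strains Art2b no longer passed (adjusted p = 0.172).

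Several genes of the same stretch were lower in the high arrays. Lrrc51, a leucine-rich repeat gene, ran from 8.43 through 8.97 to 9.56 in the high arrays and from 8.87 through 9.29 to 9.65 in the low arrays, and fell by 0.33 ± 0.049 units (adjusted p = 4.27e-06). Pold3, a subunit of DNA polymerase delta, fell by 0.17 units, Rnf121, a membrane-bound RING ubiquitin ligase, by 0.16 and Map6, a microtubule stabiliser, by 0.22. Without the 14 strains Rnf121 and Map6 missed the threshold (adjusted p = 0.103 for both), and Map6 also did with 1 value per strain (adjusted p = 0.159). Gdpd5, a glycerophosphodiesterase, fell by 0.14 units and lost its call without the 6 strains (adjusted p = 0.161). The receptor gene Olfr520 fell by 0.30 ± 0.036 units.

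The metabolic genes of this stretch gave weaker results. Thrsp, which promotes fatty acid synthesis, ran from 9.72 through 12.31 to 14.39 in the high arrays and from 9.22 through 11.45 to 14.08 in the low arrays. The sides overlapped almost fully, and the difference of 0.91 ± 0.22 units passed (adjusted p = 0.0433) but missed without the 6 strains (adjusted p = 0.194). Ucp3, a mitochondrial carrier known from muscle and brown fat, fell by 0.40 ± 0.091 units (adjusted p = 0.016, and 0.64 without the 6 strains). The muscle gene mean given above had a median of 10.82 on the high side and 11.49 on the low side, and with muscle, lymph node and skin marker means as covariates Ucp3 differed by -0.36 units (adjusted p = 0.00873). Folh1, a glutamate carboxypeptidase 297 genes before Trim12a, fell by 1.03 ± 0.26 units (adjusted p = 0.0477, and 0.385 without the 6 strains).

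On the other side of the cluster, 9 of 50 measured genes between 51 and 100 places after Trim12a passed, against 0.27% of all genes, 6 of 50 did without the 6 strains and 3 with 1 value per strain. Among the 9 were Gvin1, which codes for a very large interferon-inducible GTPase, and 5 gene models around it. Gvin1 itself ran from 10.66 through 11.64 to 12.55 in the high arrays and from 10.20 through 10.92 to 11.79 in the low arrays. The difference was 0.72 ± 0.099 units (adjusted p = 3.07e-07, and 0.00164 without the 6 strains). It missed the threshold without the 14 strains (adjusted p = 0.0771) and with 1 value per strain (adjusted p = 0.0839). The models beside it, named after their values were seen, were Gm1966 (1.66 ± 0.14 units), Gm4759 (1.23 ± 0.19), Gm4070 (0.80 ± 0.11), Gm8979 (0.76 ± 0.088) and Gm21884 (0.56 ± 0.093). Gm1966 ran from 8.45 to 11.30 on the high side and from 7.56 to 8.81 on the low side, and 5 of 52 high arrays lay below the highest low array. Gm4070 shares a synonym with Gvin1, Gm4759 is described as its pseudogene and Gm21884 is a synonym of Gm8979 in the reference, so their signals may not be separate measurements. RP24-196H4.1, which has no place in the reference table, was 0.90 ± 0.12 units higher.

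Farther out, Cyp2r1, which hydroxylates vitamin D, lay 231 genes after Trim12a and was 0.48 ± 0.11 units higher (adjusted p = 0.0211, and 0.184 without the 6 strains). The called genes with a place in the reference, 55 of the 64, all lay between 375 genes before and 231 genes after Trim12a.

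**Figure D3:**
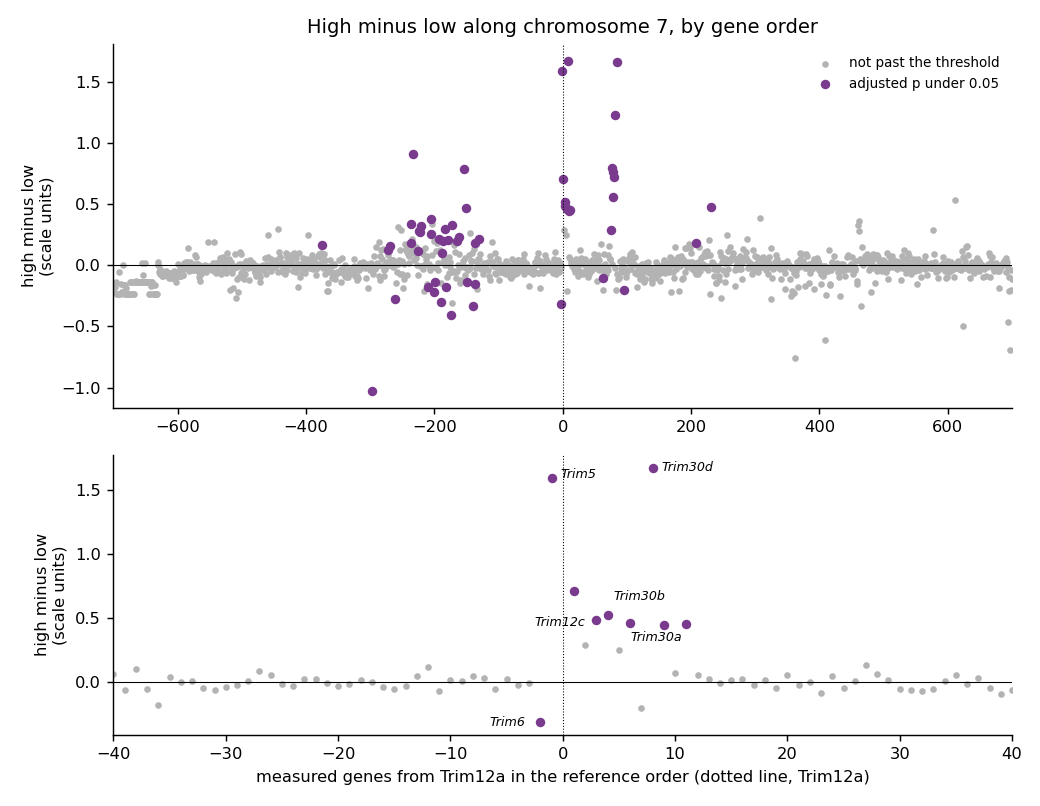
High minus low difference in scale units (vertical axis) of each measured chromosome 7 gene against its place in the reference gene order counted from Trim12a (horizontal axis, measured genes), within 700 places above and within 40 below. Called genes (adjusted p under 0.05, purple) stand mostly in the TRIM cluster, between 300 and 131 places before it and between 51 and 100 places after it, with others up to 375 places before and 231 after and 0 of 128 called between Pgap2, 131 places before it, and Trim6.

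The 6 strains with an array on each side allowed the sides to be set against each other within a strain label, although each such pair also differed in diet and these arrays disagreed at other loci. Trim5 was higher in the high array in 6 of 6 strains, by 1.12 to 2.48 units, and Trim30d in 6 of 6, by 1.14 to 2.70. Pde2a (0.41 to 1.58 units), Gvin1 (0.45 to 2.06) and Trim12c (0.11 to 1.16) were also higher in 6 of 6. Trim30b was higher in 5 of 6, Trim6 lower in 5 of 6, and Thrsp higher in 4 of 6, from -2.77 to 3.58 units. Over all genes, 2.94% went the same way in all 6 strains, against 27 of the 64 called genes of chromosome 7 and 9 of the 41 others. These strains are part of the fit that made the calls, so the last counts are a description.

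**Figure D4:**
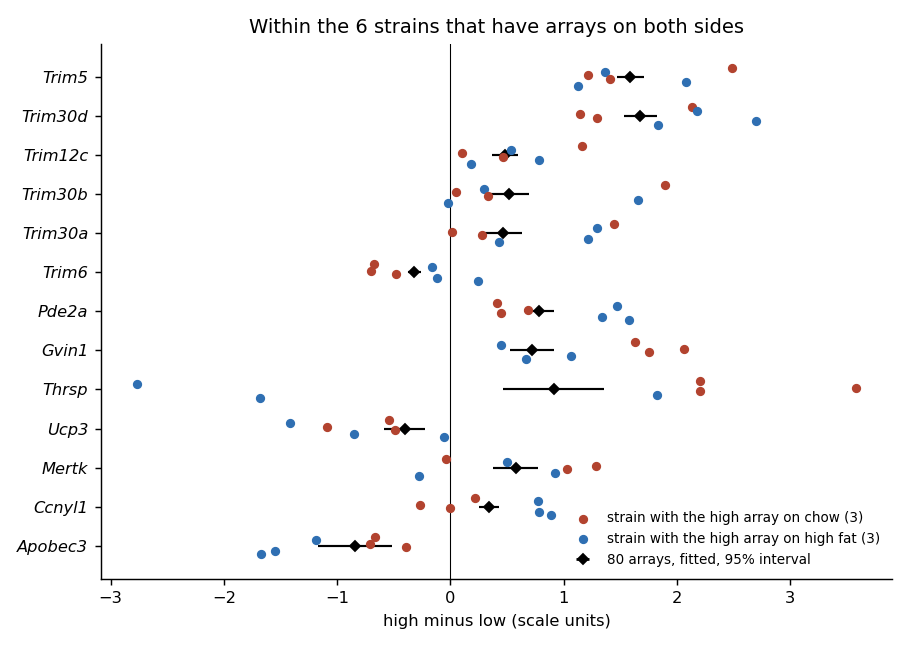
High minus low in scale units (horizontal axis) for 13 genes within each of the 6 strains with an array on each side (points, coloured by the diet of the high array), and the fitted difference over all 80 arrays with its 95% interval (black diamonds). All 6 points of Trim5, Trim30d, Trim12c, Trim30a, Pde2a and Gvin1 lie above 0, those of Ucp3 and Apobec3 lie below 0, and those of Thrsp spread from -2.77 to 3.58.

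The parental arrays gave the direction apart from the BXD strains. C57BL/6J was above DBA/2J for Trim5 (means of both diets 10.3 and 8.26), Trim30d (9.76 and 7.91), Trim12c (10.6 and 9.69) and Gvin1 (11.95 and 10.7), and below it for Trim6 (7.56 and 8.13). Pde2a was nearly level between them (11.8 and 11.7) although the sides differed by 0.78 units. In a fit without the parents, 72 genes of chromosome 7 passed and 43 of these (59.7%) differed between the parents in the same direction, as did 39.9% of all genes. Of 124 called genes on other chromosomes 24 (19.4%) did so. With 1 array per parent and diet there is no test of the parental difference.

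Away from chromosome 7, Ccnyl1, a cyclin Y-like gene on chromosome 1, ran from 9.78 through 10.15 to 10.61 in the high arrays and from 9.38 through 9.84 to 10.41 in the low arrays. It was 0.34 ± 0.044 units higher (adjusted p = 4.15e-08, and 3.89e-05 without the 6 strains), with an adjusted p of 0.0529 on high fat alone. Its levels resembled those of Gm16464, the gene model in the TRIM cluster. Both were highest in BXD92a on chow (10.61 and 11.06) and lowest in BXD87 on chow (9.38 and 9.60). C57BL/6J minus DBA/2J was -0.13 for Ccnyl1 and -0.08 for Gm16464. Whether the 2 signals are separate was not tested. Mertk, a receptor kinase with which macrophages take up dying cells, ran from 9.26 through 10.23 to 10.97 in the high arrays and from 9.08 through 9.38 to 10.36 in the low arrays. The sides overlapped widely, and 35 of 52 high arrays lay below the highest low array. The difference was 0.58 ± 0.10 units (adjusted p = 0.000192, and 0.00487 without the 6 strains). It missed the threshold with 1 value per strain (adjusted p = 0.0925), on chow alone (0.13) and on high fat alone (0.132).

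Cbx7, a polycomb protein gene on chromosome 15, fell by 0.32 ± 0.054 units (adjusted p = 9.5e-05, and 0.0383 without the 6 strains). It missed the threshold with 1 value per strain (adjusted p = 0.188), on chow alone (0.0825) and on high fat alone (0.212). Apobec3, a cytidine deaminase that restricts retroviruses, ran from 8.81 through 9.26 to 11.26 in the high arrays and from 9.00 through 10.58 to 11.46 in the low arrays. It fell by 0.84 ± 0.16 units (adjusted p = 0.00167) and missed the threshold without the 6 strains (adjusted p = 0.0924). For both genes the parents ran the other way. C57BL/6J and DBA/2J were at 10.9 and 9.05 for Apobec3 and at 9.98 and 9.62 for Cbx7. Chromosome 15 held 5 called genes of 1221 (0.41%), all lower in the high arrays, against 0.27% of all genes and 0.115% of those off chromosome 7. The shares on chromosome 19 (6 of 1019, 0.589%) and chromosome 2 (12 of 3503, 0.343%) were also above both. Among the called genes of chromosome 15 were Cbx7, Apobec3, Xrcc6 and Tcf20, and how far these are separate results was not tested.

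Among the remaining called genes outside chromosome 7, Nr4a2, an orphan nuclear receptor, was 0.35 ± 0.070 units higher, Slc7a8, an amino acid transporter, 0.61 ± 0.15, Rbm46, an RNA-binding protein of germ cells, 0.68 ± 0.17, Ccl11, the chemokine eotaxin, 0.35 ± 0.088, and Fnbp1l, which shapes membranes for actin assembly, 0.30 ± 0.067. Xrcc6, which codes for a DNA end-binding subunit, fell by 0.14 units and Tcf20, a transcriptional coregulator, by 0.13. None of these 7 passed without the 6 strains, where their adjusted p ran from 0.117 for Fnbp1l to 0.573 for Rbm46.

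The interferon-response genes did not pass as single genes. Of 29 such genes, 0 passed limma's test and 14 had an unadjusted p under 0.05, all higher in the high arrays, where 12.5% of all genes did in either direction. Their median difference was 0.13 units against -0.01 over all genes, and Rsad2, an antiviral enzyme, came closest at 0.36 ± 0.093 units (adjusted p = 0.0693). Without the 6 strains 1 gene had an unadjusted p under 0.05 and the median was 0.05 units. The other antiviral restriction factors held 1 call of 14, Apobec3 as above, with a median of 0.05.

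Within a side, Trim12a and the mean of these 29 genes were set against each other for each diet, so that each strain entered once. These correlations are a description with no test, since Trim12a chose the sides, and the arrays share their scaling. On the low side on chow, Pearson's r was 0.74 and Spearman's rho 0.72 (15 arrays), with r at 0.68 without the 2 arrays farthest from the median of Trim12a. On the high side on high fat, r was 0.58 and rho 0.60 (25 arrays), with r at 0.48 without 2 arrays. On the high side on chow, r was 0.51 but rho 0.30 (27 arrays), and r was 0.20 without 2 arrays, so that value rests on those arrays. On the low side on high fat, r was 0.35 and rho 0.04 (13 arrays), with r at 0.60 without 2 arrays. These are the 4 relations computed, chosen after the side values were seen. The 3 arrays highest in Trim12a, BXD51 on chow, BXD83 on high fat and BXD45 on chow, ranked 6, 3 and 4 of 80 for the interferon gene mean. BXD51 and BXD83 are among the 6 strains with an array on each side.

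**Figure D5:**
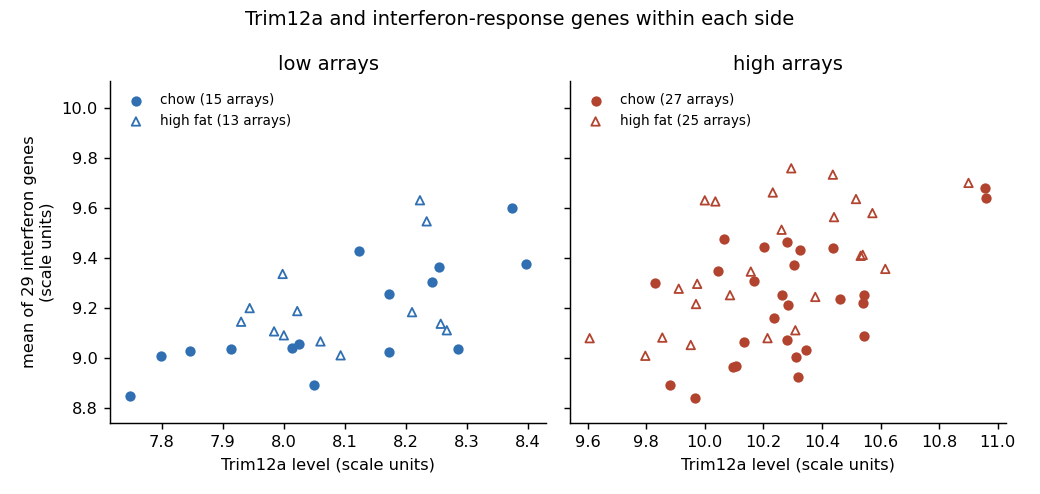
Mean of 29 interferon-response genes (vertical axis, scale units) against Trim12a (horizontal axis, scale units) in the low arrays at left and the high arrays at right, with filled circles for chow and open triangles for high fat. The points rise together on the low side on chow (r = 0.74) and on the high side on high fat (r = 0.58). They do so less clearly on the high side on chow (rho = 0.30) and on the low side on high fat (rho = 0.04). The 3 arrays farthest to the right at about 10.9 and above are all near the top.

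Of the cell type lists, the macrophage list had 1 called gene of 15, Mertk, and 11 genes with an unadjusted p under 0.05, all higher, with a median of 0.21 units, against 12.5% of all genes unadjusted. Of these 15 genes, 6 had an unadjusted p under 0.05 without the 6 strains, 5 with 1 value per strain, 1 on chow alone and 13 on high fat alone. The lipid-associated macrophage list had 0 of 11 called by limma and 8 unadjusted, all higher (median 0.28), and endothelium 0 of 12 called and 9 unadjusted, all higher (median 0.14). The T cell list had 0 of 12 called and 4 unadjusted, all lower (median -0.23). Without the 6 strains the unadjusted counts of these 3 lists were 4, 2 and 0. The mean of the macrophage genes ran from 9.97 to 11.80 on the high side and from 9.84 to 10.97 on the low side. How far the share of macrophages moves with the Mertk difference was not tested. With muscle, lymph node and skin marker means as covariates Mertk differed by 0.59 units (adjusted p = 0.000228).

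The fat cell lists are read against all genes, of which 0.27% were called and 12.5% had an unadjusted p under 0.05. Fat cell identity had 0 of 17 genes called by limma and 3 with an unadjusted p under 0.05, and Adipoq, the adiponectin gene, differed by 0.03 ± 0.041 units. Lipogenesis had 1 of 15 called, Thrsp as above, with a list median of -0.01. Fatty acid oxidation (15 genes) and the thermogenic list (10 genes) had 0 called and 3 unadjusted each, and autophagy (15 genes) and the cell cycle (14 genes) had 0 called and 0 unadjusted.

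The last comparison asked whether the difference between the sides itself differed between chow and high fat. In limma's interaction term 0 of 38826 genes (0.0%) passed, and 1180 (3.04%) had an unadjusted p under 0.05. For Trim5 the difference was 1.64 units on chow and 1.53 on high fat, with the interaction at -0.12 (95% interval -0.34 to 0.10). For Trim30d it was 1.60 and 1.74 units, with the interaction at 0.14 (-0.12 to 0.40). The diet itself changed 61.2% of all genes within strains and 23 of the 48 named called genes. Pde2a rose on high fat by 0.33 ± 0.081 units and Thrsp fell by 1.18 ± 0.19, while Trim12c (-0.01 ± 0.053) and Trim5 (-0.19 ± 0.11) did not pass the diet test. This test included the 6 strains whose chow and high fat arrays lay on different sides, which widens the spread of genes that follow Trim12a. With them 45 of the named genes passed limma's diet test, and without them 49. Gm15133, beside Trim12a, had an adjusted p of 0.135 with them and 0.00479 without them. The lack of a call for Trim5 is thus not evidence of no diet change.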

How the data were processed

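RNA of pools of about 5 mice per strain and diet was measured on 80 Affymetrix arrays, amplified with the Ambion WT Expression Kit per the labels' protocols. Per the submitters' processing notes, Affymetrix Expression Console and RMA were used; versions, annotation and genome build are not given in the sources used here. The authors deposited 65770 features per array as a score, rescaled to a mean of 8.0 and an SD of 2.0 at a step not described. The design had assumed log2 values and the same test was run on the score. The values of the annotated table and of the series record were identical (0 differed by feature).

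Each symbol was represented by its feature of highest mean, giving 38827 genes; 26355 features have no symbol, and low values were not filtered. Trim12a had 1 feature. Chromosomes came from feature IDs and matched the reference for 32255 of 32344 genes (99.7%). Symbols were matched to a RefSeq gene table of GRCm38.p6 (32385 of 38827), used for names and gene order, and RefSeq promoters of the same assembly were searched for the motifs GAAANNGAAA and TATAAA (in 13.6% of windows) on both strands.

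High and low arrays were compared with limma 3.58.1 (R 4.3.3; lmFit, duplicateCorrelation, eBayes), side and diet as terms and strain as a random block (consensus correlation 0.16), with Benjamini-Hochberg adjustment over 38826 genes. The pairing of arrays comes from the strain label. The diet effect used strain as a fixed block. The same correlation was used for every gene, so the spread behind each p-value mixes that between strains and that between the arrays of a strain. No array batch is given. On data simulated for this comparison over 38826 genes, 53 of 67 genes changed by 0.25 units were recovered (79.1%), 95.5% at 0.5 and 100% at 1 unit, with 11 unchanged genes called. The simulation put the correlation of 0.16 into every gene, so it cannot show how genes with a stronger strain effect fare.

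The side rule, gene lists and naming rules were chosen with earlier results of these data known. Named were the TRIM genes of chromosome 7, up to 10 called genes in each direction on chromosome 7 and elsewhere, the 10 genes most correlated with Trim12a, up to 3 called genes per list and the 20 genes on either side of Trim12a. Not every gene under these rules is reported here. Predicted models were counted and not named, except those said to be chosen after their values were seen. Alternatives were other normalizations, filters, feature choices, covariates and sets of arrays.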

Additional observations from a re-analysis of the deposited data

How the results depend on the processing

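High against low gave 105 called genes, 24 with a difference of at least 0.5 units, 64 on chromosome 7 and 41 elsewhere. With 1 value per strain these were 33, 10, 30 and 3. Chow arrays alone gave 37 called genes, 30 on chromosome 7 and 7 elsewhere, and high fat arrays alone gave 25, 12, 22 and 3 in the order above; both have fewer arrays. Without the 6 strains with an array on each side they were 51, 15, 41 and 10, and 49 of the 51 were among the 105. Without the 14 strains whose arrays disagreed, an alternative chosen after seeing the data, they were 34, 14, 28 and 6, all 34 among the 105. Without both parents 196 genes passed, 124 of them elsewhere, and the cause was not tested. Quantile normalization gave 62 genes elsewhere and marker means as covariates 25. Without the strain block, so that arrays counted as independent, 115 passed; the pairing comes from the strain label. Of genes called without the parents on chromosome 7, 43 shared the parental direction, and 26 did so when the 6 strains were also left out. A parental midpoint cut or a minimum of 4 arrays per side gave the same sides. Of 85 named genes, the 48 called kept their direction in all 17 settings and 15 were called in all of them, while some uncalled genes near 0 changed sign. In 8 fits (all arrays, without the 6 strains, without the 14 strains, strain means, each diet alone, without parents, marker covariates) 19 genes passed every time, 17 of them on chromosome 7. The others were gene models annotated on the X chromosome, Gm4992 as above and Gm24783. The latter, named after its values were seen, was 0.92 ± 0.076 units higher in the high arrays (limma adjusted p = 7.15e-16). Whether its signal is separate from those of the cluster was not tested. Near-identical gene copies, arrays of 1 strain label that disagree between diets and an undescribed rescaling limit what the differences measure.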

Other observations

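Among genes that the naming rules did not reach, 3 neighbours on chromosome 7 passed in all 8 fits listed above and were named after their values were seen. Myo7a, an unconventional myosin of hair cells and retina, was 0.32 ± 0.028 units higher in the high arrays (limma adjusted p = 2.58e-15). Usp35, a deubiquitinating enzyme, was 0.34 ± 0.034 units higher (adjusted p = 4.47e-12), and Pgap2, which remodels membrane anchors, 0.21 ± 0.021 (adjusted p = 2.58e-12). Their places in the reference order were 221, 237 and 131 genes before that of Trim12a, in the same stretch as Pde2a and Uvrag.

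Features without a gene symbol took no part in the gene counts. Of 26355 such features, 3 had high and low arrays that did not overlap, and all 3 were on chromosome 7 and higher in the high arrays. The feature just before that of Trim12a in the numbering of feature IDs ran from 8.27 through a median of 9.17 to 9.94 in the high arrays and from 5.32 through 5.95 to 6.47 in the low arrays. The feature just after it ran from 8.56 through 9.51 to 10.42 and from 5.04 through 5.58 to 6.53. Both were separated more widely than Trim12a itself, whose means were 10.26 and 8.09, with means of 9.15 and 5.96 for the former and 9.54 and 5.61 for the latter. The third, 9 places after Trim12a in that numbering, had means of 8.25 and 6.76. The files used here give these features no gene name.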
